A study of Homo sapiens with 24 samples.

Results

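A549, a human lung adenocarcinoma cell line, contributed 6 of the 24 RNA sequencing libraries of a study on the loss of CBX7, and all 19475 genes of the deposited gene table are considered for them. The members were taken by the cell line and genotype labels: 3 A549 libraries are labelled CBX7 knockdown and 3 are labelled control. The other 18 libraries hold the same 2 genotypes in H1299, K562 and THP-1 cells. The protocol in the labels describes a lentivirus that carries a short hairpin RNA against CBX7 in the knockdown arm and a control hairpin in the other. The treatment label names a small interfering RNA against CBX7 for controls too, and the sample titles hold the word CBX7 in both arms. The labels name no time after infection, no selection and no clone, and they do not say whether the replicates are separate cultures. The p-values therefore speak only of the scatter of these 6 libraries, part or all of which may be technical.

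CBX7 went against the genotype label. It was at 52.4, 49.9 and 50.4 CPM (counts relative to the TMM-scaled library total) in the libraries labelled knockdown, against 6.45, 5.98 and 5.57 CPM in control libraries. The log2 fold change was 3.08 ± 0.07 (SE), with a Benjamini-Hochberg adjusted p of 3.18e-12 by edgeR's quasi-likelihood test. Directions below follow the labels as given, so "rose" and "fell" compare the libraries labelled knockdown with the control libraries. Whether the genotype labels were exchanged was not tested.

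CBX7 is one of the chromodomain proteins through which Polycomb repressive complex 1 binds the histone mark laid down by Polycomb repressive complex 2. The complex keeps developmental and growth-arrest genes silent. A best-known target is the CDKN2A locus, whose products hold back cyclin-dependent kinases and stabilise p53. A549 cells carry a deletion of CDKN2A. In dividing cells, E2F factors switch on genes of DNA replication before S phase. Genes of mitosis are switched on later, through a promoter element called the cell cycle genes homology region (CHR), which MuvB complexes bind, and through CCAAT boxes, which NF-Y binds. The same CHR elements keep those genes silent in resting cells, when p53 and p21 shift MuvB into the repressive DREAM complex.

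Among 14980 genes tested in A549, 27.2% rose and 28.4% fell at an adjusted p under 0.05 (edgeR quasi-likelihood test on TMM-scaled counts), which is the meaning of "called" throughout. A value in brackets after a gene is its log2 fold change. These shares are the background against which each group of genes is set. Called changes of at least 2-fold were fewer, at 4.99% of tested genes upward and 3.09% downward. The median log2 fold change of all tested genes was 0.01. Total estimated counts were 71087023, 91714111 and 80340780 in the libraries labelled knockdown, against 117019335, 102258782 and 106307505 in control libraries. The correlation of log2 CPM across genes was 0.9932 to 0.9959 within the 2 groups and 0.9784 to 0.981 between them. Limma on log2(FPKM + 1) without a filter moved the share of higher calls among all calls to 59.8%, against 48.9% here.

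The libraries had the epithelial profile of the line. KRT8, a simple epithelial keratin, averaged 3073 ± 79.4 CPM in libraries labelled knockdown and 6224 ± 29.8 CPM in control libraries (SD, n = 3 each), and EPCAM, CDH1, KRT7, KRT18 and KRT19 were all present. Of the defining alveolar genes, SFTPC was at most 0.191 CPM, NKX2-1 at most 0.241 CPM and HOPX at 0 in every A549 library. Other alveolar genes were present, and 12 of the 20 on that list could be tested. The list summed to 583.1, 578.2 and 574.3 CPM in libraries labelled knockdown, against 688.2, 675.6 and 672.5 CPM in control libraries. Among the defining markers of other tissues, KDR and VWF of endothelium, MPO of myeloid cells, and CD3D and MS4A1 of lymphocytes were at 0 in every A549 library. Fibroblast markers were not at 0, and their values stand with the matrix genes below. In such bulk libraries, fewer cells of a type and less RNA per cell cannot be told apart.

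Many promoters of the cell cycle genes that fell carry short words linked to phases of the cycle. As examples, 6 promoters that hold such words are shown, chosen after the values of their genes were seen. The windows run from 250 bases before the start to 50 bases after it, in RefSeq on GRCh38.p14. PLK1 is at chr16:23678639-23678938 on the plus strand, CCNB2 at chr15:59104896-59105195 on the plus strand, NCAPG at chr4:17810729-17811028 on the plus strand and MKI67 at chr10:128126374-128126673 on the minus strand. GINS2 is at chr16:85688905-85689204 on the minus strand and POLA2 at chr11:65261712-65262011 on the plus strand. Capitals mark the words found on either strand. The CHR word is TTTGAA in the promoters shown, and the spelling TTCGAA was searched for too. The NF-Y word is CCAAT. The E2F words are TTTCCCGC, TTTCGCGC, TTTGCCGC and TTTGGCGC.
PLK1: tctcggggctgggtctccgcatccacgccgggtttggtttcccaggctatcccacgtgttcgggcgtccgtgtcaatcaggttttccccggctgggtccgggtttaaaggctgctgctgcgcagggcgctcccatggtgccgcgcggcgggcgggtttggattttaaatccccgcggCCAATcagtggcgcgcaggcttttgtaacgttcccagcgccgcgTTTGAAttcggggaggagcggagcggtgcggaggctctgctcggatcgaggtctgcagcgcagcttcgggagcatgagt
CCNB2: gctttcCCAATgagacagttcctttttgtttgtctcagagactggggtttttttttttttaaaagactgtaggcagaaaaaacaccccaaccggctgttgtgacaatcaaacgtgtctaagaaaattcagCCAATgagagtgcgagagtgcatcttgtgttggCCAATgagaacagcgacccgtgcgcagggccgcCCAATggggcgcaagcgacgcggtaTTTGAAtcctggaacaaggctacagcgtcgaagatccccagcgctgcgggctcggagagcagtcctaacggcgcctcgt
NCAPG: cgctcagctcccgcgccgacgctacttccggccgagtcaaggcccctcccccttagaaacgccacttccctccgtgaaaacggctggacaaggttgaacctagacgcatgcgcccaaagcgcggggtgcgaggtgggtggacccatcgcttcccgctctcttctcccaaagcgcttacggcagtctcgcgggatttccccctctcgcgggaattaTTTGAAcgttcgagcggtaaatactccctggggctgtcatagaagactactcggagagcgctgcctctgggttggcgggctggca
MKI67: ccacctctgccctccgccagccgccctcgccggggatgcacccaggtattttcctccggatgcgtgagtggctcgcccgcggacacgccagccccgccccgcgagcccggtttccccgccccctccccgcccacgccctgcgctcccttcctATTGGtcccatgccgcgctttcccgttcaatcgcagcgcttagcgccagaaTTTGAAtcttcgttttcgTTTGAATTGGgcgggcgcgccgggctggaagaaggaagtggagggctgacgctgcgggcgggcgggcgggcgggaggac
GINS2: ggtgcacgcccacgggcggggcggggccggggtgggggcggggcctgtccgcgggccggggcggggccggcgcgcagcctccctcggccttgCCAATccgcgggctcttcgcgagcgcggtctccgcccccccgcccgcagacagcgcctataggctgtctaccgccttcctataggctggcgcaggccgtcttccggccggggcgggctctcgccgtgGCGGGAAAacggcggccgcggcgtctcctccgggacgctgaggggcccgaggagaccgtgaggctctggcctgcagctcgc
POLA2: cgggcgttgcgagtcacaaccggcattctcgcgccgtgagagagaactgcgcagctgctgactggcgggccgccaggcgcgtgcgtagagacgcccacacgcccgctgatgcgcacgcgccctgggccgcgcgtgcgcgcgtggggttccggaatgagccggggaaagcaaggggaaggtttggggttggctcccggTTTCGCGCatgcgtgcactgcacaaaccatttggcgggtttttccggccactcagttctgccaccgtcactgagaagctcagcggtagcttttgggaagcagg

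In the 4 mitotic promoters the CHR word lies close upstream of the start. It begins 29 bases before it in PLK1 and CCNB2 and 35 bases before it in NCAPG. MKI67 has CHR words at 47 and 29 bases, the second of which overlaps a CCAAT word on the other strand. CCNB2 holds 4 CCAAT words, PLK1 holds 1 and NCAPG holds none. The 2 replication promoters hold no CHR word. Their E2F word begins 31 bases before the start in GINS2, where it is read on the other strand, and 53 bases before it in POLA2. Other replication promoters differed from these examples. ORC1, MCM10, PRIM1 and CHAF1A held no E2F word, and in CDC6 and MCM2 it lay after the start. In MCM3 and PCNA it lay before the start. Only the 4 E2F spellings given above were searched. The near spelling TTTGGCGG, which was not among them, occurs in the windows of CDC6, MCM10 and POLA2.

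Counted over all promoters of this length, the words differed in share by the role of the genes. CHR was in 11.6% of the 11635 promoters of tested genes that had an entry. It was in 33.6% of the 363 promoters of genes at least 2-fold lower and in 13% of the 525 promoters of genes at least 2-fold higher. Of 50 promoters of the mitotic kinase, kinetochore, condensin and cohesin lists, 64.0% held it, against 4.55% of 44 promoters of the licensing, helicase and polymerase lists. The E2F words went the other way, with 12% of the mitotic and 43.2% of the replication promoters, beside 4.96% of all. CHR and CCAAT together were in 40.0% of the mitotic promoters, 2.27% of the replication promoters and 4.75% of all. CCAAT, with or without CHR, was in 66.0% of the mitotic, 54.5% of the replication and 35.8% of all promoters, so it differed little between the 2 roles. These shares describe the letters of the windows and were not tested, and they say nothing of which factor was bound.

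The machinery of replication, mitosis and recombination fell almost as a whole. In 6 lists of such genes, 133 of 140 tested members fell, 98 of them at least 2-fold, and 1 rose. The member that rose was POLD4, the small accessory subunit of DNA polymerase delta, at 93.4, 87.7 and 87.2 CPM in libraries labelled knockdown, against 66.0, 66.7 and 66.9 CPM in control libraries. ESCO1, FANCL, MIS12, ORC2, RAD51B and RPA2 were the members not called. RPA2 was called lower without control replicate 2, with an edgeR adjusted p of 3.3e-05, and FANCL without control replicate 1 or 3, with 0.0239 to 0.0341. Of all tested genes 28.4% fell.

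Most cyclins and cyclin-dependent kinases fell, with D-type cyclins on both sides. CCND1, the D-type cyclin that answers growth factors, was at 378, 388 and 398 CPM in libraries labelled knockdown, against 325, 320 and 319 CPM in control libraries (log2 fold change 0.27). Its partner CDK6 also rose, by 0.18, whereas CDK4 (-0.46) and CCND3 (-0.35) fell. CCNE2, an S phase entry cyclin, was at 3.55, 3.51 and 4.36 CPM in libraries labelled knockdown, against 9.85, 10.9 and 11.1 CPM in control libraries, and CCNE1 fell by 0.80. CCNA2, the cyclin of S and G2 phase, was at 21.6, 22.2 and 23.2 CPM in libraries labelled knockdown, against 90.3, 91.9 and 87.6 CPM in control libraries. The groups did not overlap for CCNE2 or CCNA2. CCNB1, the mitotic cyclin (-1.71), its kinase CDK1 (-1.71) and PKMYT1, the kinase that restrains them (-2.17), all fell. In all, of 19 cyclins, cyclin-dependent kinases and the phosphatases and kinases that switch CDK1, 16 fell and 3 rose, and their median log2 fold change was -1.13. In a single fit of all 24 libraries the calls of CDK6 and CCND3 were lost. The other riser was CCND2, a D-type cyclin listed at 0 in every control library and at 0.713, 1.92 and 2.02 CPM in libraries labelled knockdown.

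**Figure D1:**
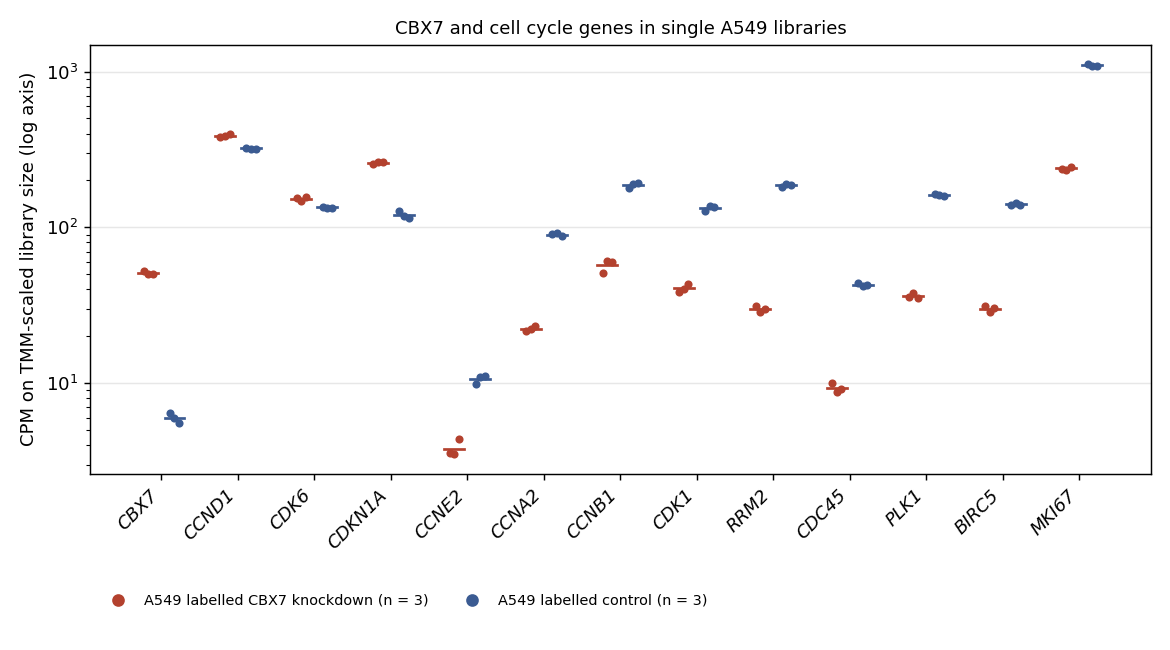
CPM of cell cycle genes in each A549 library on a log axis, with the libraries labelled knockdown left of the control libraries for each gene; points are single libraries and lines are group means. CBX7 and CCND1 are higher and CCNA2, CDC45, PLK1 and MKI67 lower in the libraries labelled knockdown, and no group of these genes overlaps its counterpart.

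The E2F and MuvB regulators moved in the same direction. The E2F and retinoblastoma list had 14 of 21 members lower and 1 higher, with a median of -0.58. The activators E2F1 (-1.63) and E2F2 (-1.90) fell, and so did MYBL2, the MuvB partner that switches on mitotic genes (-1.97), and FOXM1 (-1.78). RB1, which restrains E2F (-0.54), and its relative RBL1 (-1.07) also fell, whereas RBL2, the pocket protein of resting cells, was not called at 0.16. E2F6, a repressor that lacks a pocket protein binding domain, was the member that rose, by 0.31, and its call was lost without any single library other than control replicate 1, with edgeR adjusted p-values of 0.0661 to 0.116.

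Origin licensing and the replisome fell in nearly every part. CDC45, which joins the MCM helicase to make it active, was at 10.03, 8.82 and 9.22 CPM in libraries labelled knockdown, against 44.0, 42.3 and 42.5 CPM in control libraries (log2 fold change -2.20 ± 0.06). GINS2, another helicase partner, was at 10.6, 10.1 and 10.9 CPM in libraries labelled knockdown, against 38.0, 38.6 and 41.6 CPM in control libraries. The groups did not overlap for either gene, as held for 63.7% of all genes tested. Of 26 licensing and helicase genes, 25 fell, among them MCM10 (-1.88), ORC1 (-1.59), CDC6 (-1.47) and MCM2 (-1.44). CDT1, which loads the helicase (-1.35), and its inhibitor GMNN (-1.31) fell alike. ORC2 was not called, at -0.06.

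Most genes of polymerases and nucleotide supply fell too. POLA2, a subunit of the primase complex, was at 21.3, 19.96 and 19.9 CPM in libraries labelled knockdown, against 63.1, 59.2 and 54.7 CPM in control libraries. PRIM1 (-1.54), POLA1 (-1.29) and POLE (-1.0) fell too, and 24 of 26 members of that list fell. Of 12 genes of deoxynucleotide supply 9 fell, among them RRM1 (-1.35) and TYMS (-1.15), and SAMHD1, which degrades deoxynucleotides, fell by 0.53. The other 3 rose: RRM2B, the p53-induced subunit of ribonucleotide reductase, by 2.13, the mitochondrial kinase TK2 by 0.33 and the deaminase DCTD by 0.12. The call of TK2 was lost in a fit of all 24 libraries, and that of DCTD without any single control library or knockdown replicate 2, with edgeR adjusted p-values of 0.0641 to 0.141.

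The mitotic kinase and kinetochore lists had the lowest medians of the 6 lists. PLK1, the kinase that drives mitotic entry, was at 35.5, 38.1 and 35.2 CPM in libraries labelled knockdown, against 165, 162 and 159 CPM in control libraries (log2 fold change -2.16 ± 0.04, edgeR adjusted p 8.67e-13). NCAPG, a subunit of condensin, was at 15.9, 16.6 and 16.5 CPM in libraries labelled knockdown, against 76.0, 79.1 and 80.7 CPM in control libraries. In both genes every library labelled knockdown lay more than 4-fold below the lowest control library. All 20 mitotic kinases and regulators tested fell, with a median of -1.73, and 22 of 23 kinetochore genes fell, with a median of -1.76. Among them were the kinases AURKB (-2.11) and AURKA (-1.72), the activator of mitotic exit CDC20 (-2.11) and the checkpoint kinase BUB1 (-1.94). The centromeric histone CENPA (-1.98) and the kinetochore subunits SPC24 (-2.23) and NDC80 (-2.19) fell too. Within the condensin and cohesin list the falls differed in size. The condensin genes NCAPH (-2.13) and SMC2 (-1.36) fell by over 2-fold, and the cohesin genes STAG2 (-0.41) and PDS5B (-0.30) by less. MKI67, the proliferation marker, was chosen after its values were seen, with 238, 234 and 244 CPM in libraries labelled knockdown, against 1115, 1088 and 1088 CPM in control libraries.

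Recombination and Fanconi anaemia genes, which repair forks during replication, had 22 of 24 members lower. RAD51AP1 (-2.12), the nuclease EXO1 (-1.80), FANCD2 (-1.70) and the helicase BLM (-1.52) were among them. RAD51B and FANCL were not called.

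CDK inhibitors did not move as a class. Of 6 tested members, 3 fell and 1, CDKN1A, rose. CDKN1B, the inhibitor p27, was at 90.6, 93.8 and 90.1 CPM in libraries labelled knockdown, against 91.8, 93.3 and 88.2 CPM in control libraries, and the groups overlapped. CDKN2C (-1.65) and CDKN2D (-1.28), inhibitors of CDK4 and CDK6, fell, and so did CDKN3, a phosphatase of CDK2 (-1.76). CDKN2A and CDKN2B, the Polycomb targets named above, were under the filter with at most 0.548 CPM in any library.

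In the p53 list of arrest and repair genes, 18 of 26 members rose, 7 of them at least 2-fold, and 4 fell, beside 27.2% and 28.4% of all genes tested. TP53INP1, a p53 target that acts in stress responses, was at 47.3, 50.2 and 51.3 CPM in libraries labelled knockdown, against 16.5, 15.7 and 14.9 CPM in control libraries. ZMAT3, a p53-induced RNA-binding protein, was at 94.1, 97.4 and 95.3 CPM in libraries labelled knockdown, against 31.8, 33.4 and 32.0 CPM in control libraries. The groups did not overlap in either gene. MDM2, the ubiquitin ligase of p53, rose by 0.64, as did the cytokine GDF15, and BTG2 rose by 1.18. SFN (-0.84) and PPM1D (-0.25), also p53 targets, fell.

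Cell death genes were mixed. Of 13 p53 death targets 7 rose and 2 fell: the receptor genes TNFRSF10D, FAS and TNFRSF10B rose by 1.47, 0.72 and 0.42 and BAX by 0.56, whereas PMAIP1, which encodes NOXA, fell by 0.70. TNFRSF10D encodes a decoy receptor that lacks a working death domain. Of 16 tested BCL2 family genes 5 rose, among them the survival gene BCL2A1, at most 1.22 CPM, by 2.04 and the death gene BMF by 1.76, and 3 fell. Without knockdown replicate 2 the edgeR adjusted p of BCL2A1 was 0.0514.

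**Figure D2:**
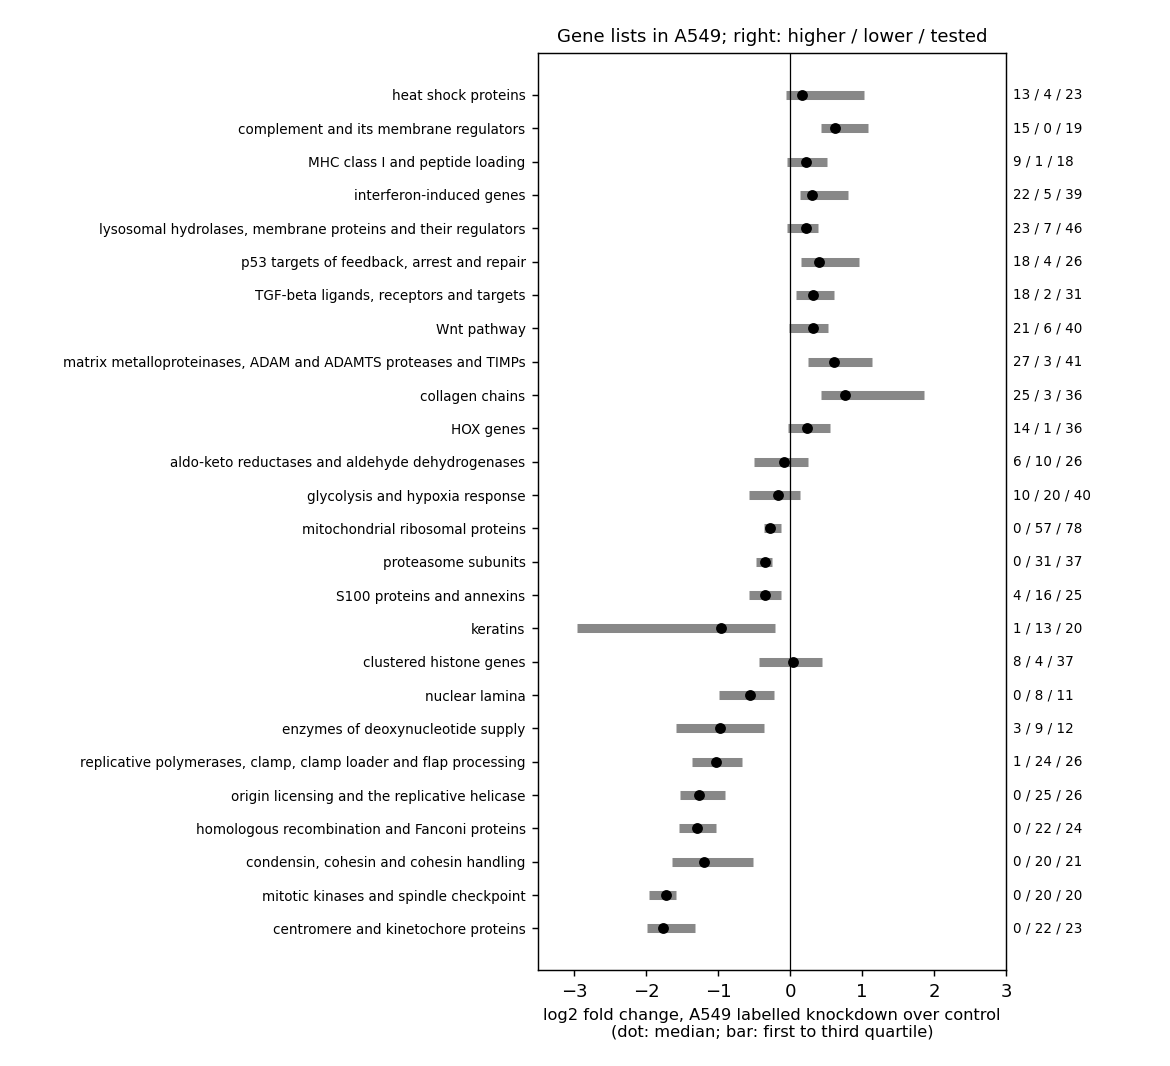
Median log2 fold change, libraries labelled knockdown over control, of 26 gene lists; bars span the lower to the upper quartile of the tested members and the counts give members called higher, called lower and tested. Lists of replication, mitosis and recombination lie left of 0, the mitotic kinases and kinetochore furthest, and the collagen and complement lists lie right of it.

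Of 11 genes of the nuclear lamina 8 fell and none rose, and of 15 genes of DNA methylation and heterochromatin 9 fell and 3 rose. LMNB1, a lamin of the nuclear envelope, was at 38.0, 38.5 and 38.2 CPM in libraries labelled knockdown, against 104, 110 and 111 CPM in control libraries. LMNB2 (-1.37), TMPO (-1.15) and the chromatin proteins HMGB2 (-1.63) and HMGB1 (-0.87) fell too. DNMT1, which copies DNA methylation (-1.10), and its partner UHRF1 (-1.46) fell, whereas the de novo enzyme DNMT3A rose by 0.58. Of 16 genes of histone variants and high mobility group proteins 15 fell, among them H2AFX (-1.54) and H2AFZ (-1.34). The member that rose was HMGA2, by 0.27, and its call was lost without any single library other than knockdown replicate 1, with edgeR adjusted p-values of 0.0567 to 0.122. Of 37 replication-dependent histone genes 8 rose and 4 fell. These transcripts lack poly(A) tails, are near-identical in sequence and share reads, so single values such as the rise of HIST1H2BC by 1.08 are uncertain.

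Among the other chromodomain subunits of Polycomb repressive complex 1, CBX6 rose by 0.19 and CBX8 was not called at -0.10. The core subunits RNF2 and BMI1 were not called, at -0.13 and -0.02, PHC1 rose by 0.37 and PHC2 fell by 0.43 on the log2 scale. In Polycomb repressive complex 2, 7 of 11 members fell, among them the catalytic subunit EZH2 (-1.53), PHF19 (-1.17), EED (-0.77) and SUZ12 (-0.52), and JARID2 rose by 0.23. The call of PHF19 was lost without any single library other than control replicate 2, with edgeR adjusted p-values of 0.0607 to 0.0817. HOX genes, classical Polycomb targets that set position along the body axis, had 14 of 36 tested members higher and 1 lower, with a median of 0.24. HOXD8, HOXA5 and HOXA13 rose by 1.06, 0.98 and 0.69 on the log2 scale and HOXB7 fell by 0.36.

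Most keratin transcripts that could be tested fell. The keratin list has 55 genes. Expression sufficed to test 20 of them, of which 13 fell, 8 of them at least 2-fold, and 1 rose. KRT8 was at 3163, 3043 and 3013 CPM in libraries labelled knockdown, against 6242, 6240 and 6189 CPM in control libraries (log2 fold change -1.02 ± 0.02). Its partner KRT18 was at 2478, 2403 and 2397 CPM in libraries labelled knockdown, against 4335, 4297 and 4208 CPM in control libraries, and KRT19 fell by 0.95. KRT7, the other type II keratin of simple epithelia, was not called, at 1636, 1545 and 1538 CPM in libraries labelled knockdown, against 1587, 1580 and 1578 CPM in control libraries. The KRT7 groups overlapped where those of KRT8 and KRT18 lay far apart. KRT4, a keratin of non-cornified stratified epithelium, had the lowest change among the named genes of at least 5 CPM, at 4.55, 4.86 and 4.52 CPM in libraries labelled knockdown, against 36.9, 35.9 and 32.9 CPM in control libraries (log2 fold change -2.92 ± 0.07, edgeR adjusted p 8.36e-12). Summed keratin CPM was 9268, 8860 and 8814 in libraries labelled knockdown, against 14270, 14160 and 14040 in control libraries.

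Cell contact genes and mucins moved in both directions. CDH1, the adhesion molecule of adherens junctions, was at 229, 225 and 223 CPM in libraries labelled knockdown, against 112, 114 and 112 CPM in control libraries (log2 fold change 1.00 ± 0.03). EPCAM rose by 0.97, the desmosomal cadherin DSC3 by 0.94 and the tight junction protein OCLN by 0.61, whereas the plakophilin PKP3 (-0.86) and DSP (-0.25) fell, although a fit of all 24 libraries called neither OCLN nor DSP. Of 39 junction genes 13 rose and 9 fell, beside 27.2% and 28.4% of all genes tested. The 2 gel-forming mucins of the airway changed in opposite directions. MUC5AC was at 64.6, 63.4 and 64.4 CPM in libraries labelled knockdown, against 215, 208 and 208 CPM in control libraries. MUC5B was at 2021, 1822 and 1823 CPM in libraries labelled knockdown, against 1202, 1114 and 1155 CPM in control libraries. Neither pair of groups overlapped, and both genes hold repeats and lie side by side, so reads may be shared. TFF1, a trefoil peptide secreted with mucins (-2.46), the gel-forming mucin MUC2 (-1.75) and the airway defence gene LCN2 (-1.03) fell. Of 14 mucin and trefoil genes 4 rose and 4 fell, which is near the shares of all genes tested. S100 and annexin genes, which bind calcium, had 16 of 25 members lower and 4 higher: S100A3 (-1.76), S100A2 (-1.54), ANXA2 (-0.66) and its partner S100A10 (-0.57) fell and ANXA9 (0.81) rose. The call of S100A2 was lost in a fit of all 24 libraries.

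**Figure D3:**
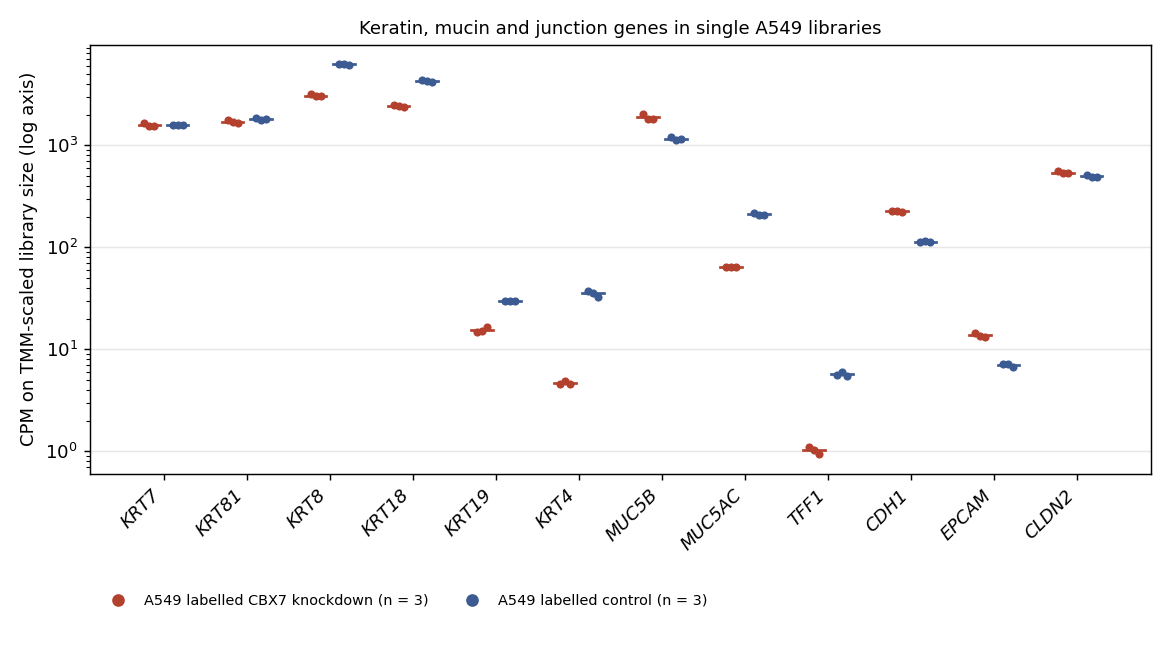
CPM of epithelial genes in each A549 library on a log axis, with libraries labelled knockdown left of control libraries; points are single libraries and lines are group means. KRT8, KRT18, KRT4 and MUC5AC are lower and CDH1, EPCAM and MUC5B higher in libraries labelled knockdown, and the KRT7 groups overlap.

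Most complement genes rose and none was called lower. Of 19 tested genes 15 rose, 5 of them at least 2-fold, with a median of 0.62. C5, from which the terminal attack complex starts, was at 392, 410 and 418 CPM in libraries labelled knockdown, against 189, 192 and 193 CPM in control libraries. CFB and CFI, a protease of the alternative pathway and an inhibitor of it, rose by 1.28 and 1.08, and C3 by 0.75. The membrane inhibitors CD55 and CD46 rose by 0.62 and 0.53. CD59, the third such inhibitor, was not called, at 255, 259 and 262 CPM in libraries labelled knockdown, against 103, 196 and 90.5 CPM in control libraries. Its groups did not overlap, and without control replicate 2 it was called, with a log2 fold change of 1.42 and an edgeR adjusted p of 1.15e-08. C1R rose by 0.81, at 53.8, 84.8 and 88.4 CPM in libraries labelled knockdown, against 47.1, 41.6 and 40.7 CPM in control libraries. Its call was lost without any single library other than knockdown replicate 1, with edgeR adjusted p-values of 0.0889 to 0.125. C4A, which shares reads with its near-identical copy, was not called at -2.99 ± 1.99 (SE), with 0, 0 and 0.183 CPM in libraries labelled knockdown, against 0, 0.742 and 0.741 CPM in control libraries.

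Genes of plasma proteins, which A549 cells make although they are best known from liver, had 18 of 37 members higher and 7 lower. FGA, a fibrinogen chain, was at 582, 583 and 588 CPM in libraries labelled knockdown, against 355, 354 and 357 CPM in control libraries, and FGG and FGB rose by 0.88 and 0.44, the call of FGB being lost in a fit of all 24 libraries. SERPINA1, the inhibitor of neutrophil elastase, rose by 0.76. SERPINC1, which encodes antithrombin, went the other way, at 0.0685, 0.128 and 0.244 CPM in libraries labelled knockdown, against 1.38, 1.35 and 0.943 CPM in control libraries. Summed CPM of the list was 2384, 2488 and 2418 in libraries labelled knockdown, against 1636, 1621 and 1698 in control libraries.

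Immune genes moved unevenly. HLA-B, which presents peptides, was at 8.26, 12.3 and 14.9 CPM in libraries labelled knockdown, against 3.25, 3.41 and 3.61 CPM in control libraries, and HLA-C and B2M rose by 0.54 and 0.25. HLA genes share sequence, so reads may have been split among them, and the calls of HLA-C and CXCL5 were lost in a fit of all 24 libraries. Of 39 interferon response genes 22 rose and 5 fell: IFI6, ISG15 and IFIT1 rose by 1.37, 1.12 and 0.87, OAS3 fell by 0.87, and the transcription factor IRF9 was not called, at 0.12. IL11, a cytokine of the interleukin 6 family, was at 47.2, 39.8 and 40.0 CPM in libraries labelled knockdown, against 15.8, 14.9 and 14.7 CPM in control libraries. IL33 rose by 2.07 and CXCL12 by 2.50, CXCL2 (-0.75) and CXCL5 (-0.23) fell, and CXCL8 was not called at -0.14. Of 23 genes of secreted inflammatory factors 10 rose and 4 fell. In the NF-kappaB list 7 of 18 members rose and 5 fell, with TRAF1 at 13.7, 12.2 and 14.1 CPM in libraries labelled knockdown, against 5.78, 4.40 and 4.78 CPM in control libraries.

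The growth factor ligands AREG and EREG fell and EGFR rose slightly, while early response genes moved in both directions. EGFR, which AREG and EREG bind, was at 248.6, 244.5 and 247.5 CPM in libraries labelled knockdown, against 218, 222 and 225 CPM in control libraries. AREG was at 25.6, 28 and 27.0 CPM in libraries labelled knockdown, against 54.3, 59.1 and 54.4 CPM in control libraries, and EREG fell by 0.93. ERBB3 rose by 0.70 and MET fell by 0.32. A fit of all 24 libraries did not call EGFR, AREG or MET. Among immediate early genes MYC (-0.59), EGR1 (-0.84), FOS (-0.74) and KLF4 (-1.31) fell, whereas NR4A2 rose by 1.22, and NR4A3 and FOSL1 rose too. Of 25 tested members of that list 8 fell and 5 rose, beside 28.4% and 27.2% of all genes tested, and their median was -0.04. FGFBP1, which releases fibroblast growth factors from the matrix, fell by 2.29, and GAS6, the ligand of AXL, rose by 1.46.

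In the TGF-beta list 18 of 31 members rose and 2 fell. The ligands TGFB2 and TGFB1 rose by 0.42 and 0.34 and the matrix target TGFBI by 0.64, whereas the receptor TGFBR2 and the inhibitory SMAD7 were not called, at 0.03 and 0.40. INHBA, an activin subunit, rose by 3.47 at levels of at most 1.44 CPM. ID4, an inhibitor of helix-loop-helix factors, was at 13.2, 12.5 and 12.9 CPM in libraries labelled knockdown, against 3.1, 4.17 and 3.61 CPM in control libraries, while its relative ID1 fell by 0.15. Of 40 WNT pathway genes 21 rose and 6 fell, with the ligands WNT5B and WNT4 up by 1.43 and 1.24, and the feedback target AXIN2 lower (-0.38). The Notch target HES1 fell by 0.53. The calls of INHBA, ID1, WNT4, AXIN2 and HES1 were lost in a fit of all 24 libraries, and that of ID1 also by limma on FPKM.

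Among genes of steady replicates, GFRA1, a receptor of glial cell line-derived factors, was at 18.0, 19.9 and 19.03 CPM in libraries labelled knockdown, against 2.17, 2.77 and 2.29 CPM in control libraries. CHGB, a granin of secretory granules, was at 97.1, 94.2 and 92.3 CPM in libraries labelled knockdown, against 23.3, 21.5 and 21.6 CPM in control libraries. Its relative CHGA was not called, at 0.06. Summed neural markers were at 716, 715 and 720 CPM in libraries labelled knockdown, against 744, 763 and 747 CPM in control libraries, and 1 of 8 tested members rose and 1 fell.

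Matrix genes were among those with the highest fold changes, and their levels differed between the libraries labelled knockdown. COL6A3, a chain of microfibrillar collagen VI, was at 8.61, 46.2 and 51.0 CPM in libraries labelled knockdown, against 0.596, 0.451 and 0.231 CPM in control libraries (log2 fold change 6.36 ± 1.03). COL1A2, a fibrillar collagen chain, was at 13.5, 72.9 and 83.2 CPM in libraries labelled knockdown, against 0, 0.0501 and 0 CPM in control libraries. DCN, a proteoglycan on collagen fibrils, was at 5.82, 30.0 and 36.0 CPM in libraries labelled knockdown, against 0, 0.0903 and 0 CPM in control libraries. In each of these, knockdown replicate 1 lay several-fold below replicates 2 and 3 and still above every control library. Control replicate 2 held the only control counts of COL1A2 and DCN, and without it their calls were lost, with edgeR adjusted p-values of 0.0722 and 0.081, although the other 2 control libraries were at 0. IGFBP5, which binds insulin-like growth factors in the matrix, showed the same order with 50.5, 177 and 198 CPM in libraries labelled knockdown, against 6.31, 7.70 and 7.45 CPM in control libraries. Of 747 genes called at least 2-fold higher, 84 had knockdown replicate 1 more than 2-fold below both other libraries labelled knockdown, against 7 and 8 genes for replicates 2 and 3.

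Markers of fibroblasts rose as a list, with 17 of 20 tested members of 26 in the table higher, 1 lower and a median of 1.76. Their summed CPM was 962, 1251 and 1282 in libraries labelled knockdown, against 799, 786 and 797 in control libraries. PDGFRB and PDGFRA, receptors of mesenchymal cells, rose by 3.70 and 3.22 and LUM by 2.98. The calls of PDGFRB and PDGFRA were lost without each of several single libraries, controls among them, with edgeR adjusted p-values of up to 0.0901 and 0.0783. A fit of all 24 libraries called neither LUM nor THY1. None of the defining fibroblast markers was at 0 in the libraries labelled knockdown. THY1, another of them, was at 12.96, 15.4 and 16.3 CPM in libraries labelled knockdown, against 8.36, 8.59 and 8.43 CPM in control libraries. Endothelial markers summed to 45.5, 45.4 and 41.4 CPM in libraries labelled knockdown, against 32.3, 31.2 and 30.4 CPM in control libraries. TEK, an endothelial receptor, was at 0.110, 2.20 and 1.84 CPM in libraries labelled knockdown, against 0.140, 0.0401 and 0.0481 CPM in control libraries. The TEK groups overlapped, and its call was lost without any single control library or knockdown replicate 3, with edgeR adjusted p-values of 0.0682 to 0.136. Lymphoid markers summed to 2.36, 3.88 and 4.36 CPM in libraries labelled knockdown, against 0.779, 0.883 and 0.520 CPM in control libraries, and monocyte markers to 48.4, 48.3 and 49.99 CPM in libraries labelled knockdown, against 41.9, 43.1 and 39.1 CPM in control libraries. The part of other cell types in the rise of matrix genes was not tested.

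Most collagen and matrix protease genes rose. COL4A1, a chain of basement membrane collagen, was at 73.5, 82.0 and 79.7 CPM in libraries labelled knockdown, against 33.6, 33.2 and 34.4 CPM in control libraries. Of 36 collagen genes 25 rose, 12 of them at least 2-fold, and 3 fell, with a median of 0.76. COL12A1 and COL5A1 rose by 0.79 and 0.62, whereas COL5A3 fell by 1.68. Of 41 matrix proteases and inhibitors 27 rose and 3 fell, with MMP14, an activator of other metalloproteases, up by 2.05 and TIMP3 by 1.14. The laminin chain LAMB3 fell by 0.91, and fibronectin, FN1, rose by 0.36. The calls of COL12A1, COL5A1, COL5A3 and FN1 were lost in a fit of all 24 libraries. Of the transcription factors of epithelial-mesenchymal transition SNAI2 rose by 0.88, but its call was lost without knockdown replicate 2 or 3 or control replicate 2, with edgeR adjusted p-values of up to 0.109, whereas ZEB1 and TWIST1 were not called, at 0.10 and 0.28, and nor was the mesenchymal cadherin CDH2, at 0.08.

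**Figure D4:**
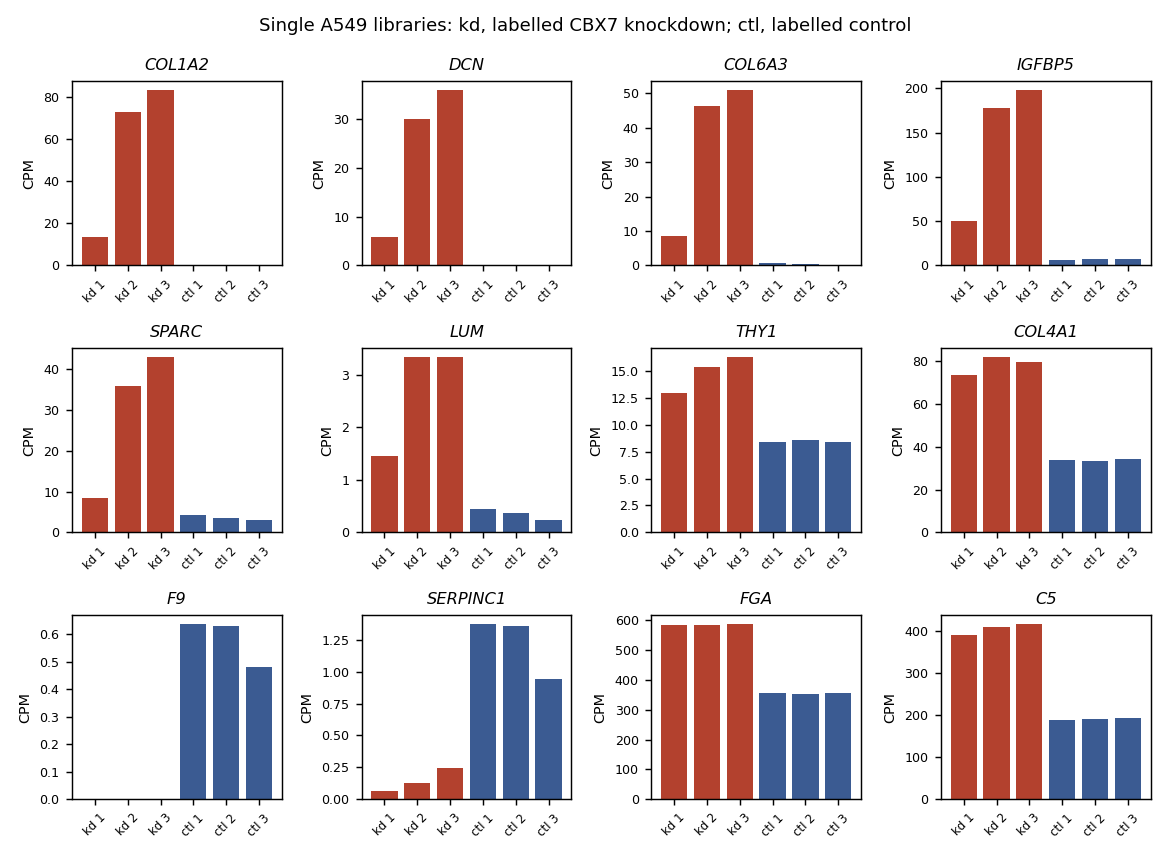
CPM of 12 genes in each A549 library, bars per library from 0, with the 3 libraries labelled knockdown left of the 3 control libraries. In COL1A2, DCN, COL6A3, IGFBP5, SPARC and LUM knockdown replicate 1 stands below replicates 2 and 3, whereas in COL4A1, FGA and C5 the libraries labelled knockdown are alike; F9 is at 0 in the libraries labelled knockdown.

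Some genes were seen in 1 group alone. With 0 estimated counts in every control library and at least 20 in each library labelled knockdown there were 12 genes: BGN, CCND2, CDC42EP5, COL13A1, GALNT15, HSD17B2, ITGA8, PAMR1, POSTN, SGIP1, SLC2A10 and WFDC1. The reverse held for 4 genes, CRLF2, F11, F9 and SERPINB5. PAMR1 had 31, 180 and 205 estimated counts in the libraries labelled knockdown, and CRLF2, a cytokine receptor, had 66, 56 and 72 in the control libraries. In most of the 12 genes knockdown replicate 1 held far fewer counts than replicates 2 and 3, as in the matrix genes above. BGN, for example, had 26, 116 and 136 in the libraries labelled knockdown, whereas CDC42EP5 had 24, 33 and 45. These counts are low beside the totals of the libraries.

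Several abundant metabolic enzymes fell. ALDH3A1, an aldehyde dehydrogenase abundant in A549 cells, was at 710, 649 and 655 CPM in libraries labelled knockdown, against 1982, 1906 and 1902 CPM in control libraries, while ALDH1A1 was not called at -0.04. Of 26 aldo-keto reductases and aldehyde dehydrogenases 10 fell and 6 rose. PKM, pyruvate kinase, was at 2880, 2774 and 2737 CPM in libraries labelled knockdown, against 4898, 4766 and 4708 CPM in control libraries, and LDHA (-0.62), PGAM1 (-0.71) and GAPDH (-0.31) fell, the call of GAPDH being lost in a fit of all 24 libraries. The glucose transporters went opposite ways, with SLC2A1 lower (-0.56) and SLC2A3 at 104, 99.1 and 97.3 CPM in libraries labelled knockdown, against 40.2, 41.3 and 38.2 CPM in control libraries. In the list of glycolysis and hypoxia genes 20 of 40 fell and 10 rose. Among drug transporters ABCB1 and ABCC3 rose by 1.13 and 0.45, the call of ABCB1 being lost in that fit, and NQO1, a quinone reductase, fell by 0.44.

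Chaperone and lysosomal genes had more members higher than lower, and proteasome subunits the reverse. Of 23 heat shock protein genes 13 rose and 4 fell, with the mitochondrial cochaperone HSPE1 lowest (-0.29), a call lost in a fit of all 24 libraries. HSPA8, the constitutive cytosolic HSP70, was at 2123, 2162 and 2147 CPM in libraries labelled knockdown, against 999, 992 and 998 CPM in control libraries. The endoplasmic reticulum chaperones HSPA5 and DNAJB9 rose by 0.48 and 1.34, and 13 of 24 genes of that list rose with none lower. HSPA1A and HSPA1B rose by 1.53 and 1.52, but they are near-identical and share reads. Proteasome subunits had 31 of 37 members lower and none higher, with a median of -0.35, and mitochondrial ribosomal proteins 57 of 78 lower and none higher, with a median of -0.28. Lysosomal genes had 23 of 46 higher and 7 lower, with CTSF and PSAP up by 0.86 and 0.61 and CTSV lower (-1.05). Of 26 amino acid transporters 9 rose and 8 fell, with a median of 0.0013. The highest fold change among them was that of SLC38A1, a glutamine carrier, at 525, 537 and 540 CPM in libraries labelled knockdown, against 174, 167 and 163 CPM in control libraries. Of 22 ATF4 targets 11 fell and 5 rose: CTH, of cysteine synthesis, rose by 1.73 and ASNS by 0.25, whereas DDIT3 (-0.92), CHAC1 (-0.89) and STC2 (-0.91) fell, and ATF4 itself was not called at -0.03.

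To find where A549 stood apart from the rest of the series, its log2 fold change was compared with the mean of those of H1299, K562 and THP-1 in a model of all 24 libraries. Of 16797 genes, 13.9% had a higher and 18.7% a lower change in A549 at an adjusted p under 0.05 (edgeR quasi-likelihood test). CBX7 was itself among the genes with a higher change, since its log2 fold change was 3.08 in A549. It was 3.62 for H1299, 1.51 for K562 and 1.20 for THP-1. All 4 lines thus had more CBX7 in the libraries labelled knockdown. The difference was 0.99 ± 0.09.

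The fall of the cell cycle genes went further in A549 than in the mean of the other 3 lines by this test. A549 was not tested against H1299 alone. Over the 6 lists of replication, mitosis and recombination, the H1299 medians ran from -0.61 for kinetochore genes to 0.30 for condensin and cohesin genes. Of the mitotic kinase list 19 members had a lower change in A549 and none a higher one, and their median log2 fold change was -1.73 in A549, beside -0.38 for H1299, 0.11 for K562 and 0.13 for THP-1. Licensing and helicase genes had 24 of 26 members with a lower change, and medians of -1.27 in A549, beside -0.35 for H1299, -0.06 for K562 and -0.13 for THP-1. Kinetochore genes had 22 with a lower change and none with a higher one. Of p53 arrest and repair genes 12 had a higher change in A549 and 2 a lower one. ATF4 targets stood apart in the other direction, since 19 of 22 had a lower change in A549 and 1 a higher one. CHAC1, which degrades glutathione, had a log2 fold change of -0.89 in A549, beside 1.01 for H1299, 4.55 for K562 and 2.21 for THP-1. SLC7A11, the cystine carrier, was at -0.26 in A549, beside 2.82 for H1299, 3.26 for K562 and 2.98 for THP-1. Interferon response genes were mixed, with 10 members higher and 15 lower than the mean of the other lines.

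**Figure D5:**
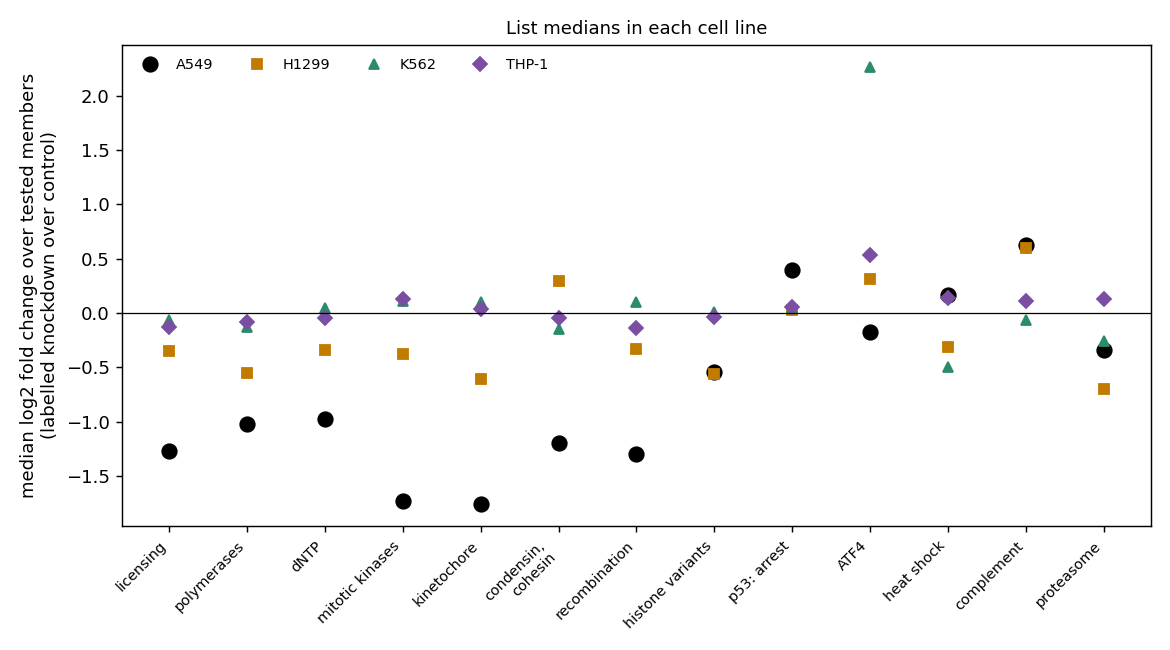
Median log2 fold change of gene lists, libraries labelled knockdown over control, for A549 and the other 3 lines; each point is 1 list in 1 line. The replication and mitosis lists lie lowest in A549, and the ATF4 list lies below 0 in A549 and above it in the other lines.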

How the data were processed

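Per the labels' protocols, total RNA was made into stranded libraries and sequenced in pairs on an Illumina HiSeq instrument. The submitters' processing notes name HISAT2 and StringTie and the build hg19, with no version of either tool. The authors deposited estimated counts and FPKM per gene. Low estimated counts lie more often near multiples of 4 than even spacing gives, 69.8% of values against 52.0% of positions, so a count is not a fragment. The strand setting of the counting was not stated, so reads of overlapping and antisense genes cannot be told apart.

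After rounding, the estimated counts of the 6 A549 libraries went into edgeR 4.0.16 under R 4.3.3 (TMM, filterByExpr, robust quasi-likelihood F test), with Benjamini-Hochberg adjustment over all genes tested. The difference from the other 3 lines was a contrast of 8 group means over 24 libraries. CPM is on TMM-scaled library sizes. DESeq2 1.42.0, limma 3.58.1 on deposited FPKM and other settings were alternatives. No replicate repeated another, with chi-square per degree of freedom of 8.53 to 11.2 on counts divided by 4. The tests were tested on simulated data.

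Gene lists were counted, not tested as sets. The comparison, lists and naming rule were chosen with earlier results of these data known. The rule took CBX7, the 12 highest and 12 lowest called changes with at least 5 CPM and no overlap, defining list members, up to 3 called members at either end of each list, the 8 largest FPKM and the extremes of the contrast. Of these the text describes those that carry each group. Some genes under this rule are not reported here. For the contrast, 6 genes in each direction were kept that were tested in every line and called in A549, a limit chosen after values were seen. MKI67, CCNB2 and the genes seen in 1 group alone were also chosen after their values were seen. Promoters are RefSeq windows on GRCh38.p14.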

Additional observations from a re-analysis of the deposited data

Results flagged for a closer look

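The 12 genes below were the 6 furthest in each direction by the edgeR contrast of A549 with the mean of the other 3 lines. They were taken among genes tested in every line and called in A549, with at least 5 CPM and no overlap in A549. Some genes outside these limits, RPS4Y1 and F2 among them, differed by more than some of those listed. Lower in A549 were PEG10 (difference -4.27), CHAC1 (-3.46), SLC7A11 (-3.27), SRGN (-3.24), HMGA2 (-3.19) and EGFR (-3.02). Higher in A549 were COL1A2 (9.83), DCN (8.41), COL6A3 (3.97), MYL9 (3.13), ADAMTS1 (2.84) and TRAF1 (2.81).

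CHAC1 and SLC7A11, genes of glutathione breakdown and cystine uptake, rest on counts in every group and on changes of 1 sign in the 3 other lines. EGFR rose by 0.15 in A549, beside log2 fold changes of 1.92 for H1299, 8.13 for K562 and -0.43 for THP-1, and the K562 control libraries held no counts of it. Control libraries were likewise at 0 for PEG10 and HMGA2 in THP-1 and for SRGN in H1299, so the fitted difference of these 4 genes depends on the prior count. TRAF1, a signalling adaptor of tumour necrosis factor receptors, had a log2 fold change of 1.42 in A549 and -3.67 in K562, where it was near 0 in the libraries labelled knockdown. COL1A2, DCN, COL6A3, MYL9 and ADAMTS1 are genes whose knockdown replicate 1 lay below replicates 2 and 3. Within A549 the call of MYL9 was lost without any single control library, with edgeR adjusted p-values of 0.0561 to 0.0692, and that of ADAMTS1 without any single library other than knockdown replicate 1, with 0.0522 to 0.102.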

How the results depend on the processing

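The main counts were 4069 genes higher and 4255 lower. All settings kept the CBX7 log2 fold change positive and called, at 2.49 to 3.12 over other tools, filters and fits. The number of genes higher stayed within 1.5 times the main count under every setting run, 2914 to 4920. The number lower was 2750 in a fit of all 24 libraries, and 3230 to 4334 elsewhere; the cause was not tested. Leaving out each library gave 3561 to 3944 higher and 3845 to 4247 lower, with CBX7 at 3.03 to 3.14. For the contrast it gave 1953 to 2103 genes with a higher and 2692 to 2810 with a lower change in A549. With a replicate block 3984 genes rose and 4334 fell, CBX7 was at 3.09, and the contrast gave 2150 and 2976. Same-numbered libraries deviated from their group means with correlations of -1.24e-05, -0.0185 and 0.022, and 2 of 6 correlated best with their own number. With so few libraries per group, these values cannot show whether same-numbered libraries shared a culture or a preparation. The calls of COL6A3, SPARC and PDGFRB were among those lost under the block. Of 4137 values of named genes under alternatives 134 lost a call, 51 gained one and none reversed. Of 1230 list counts 110 moved by over 1.5 times. KRT7, CDH2 and ZEB1 were called without knockdown replicate 1, and ALDH1A1 without knockdown replicate 3. Low counts limited precision, as for C4A (-2.99 ± 1.99, SE).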

Other observations

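Iron genes formed a small group that moved little as a whole, with 6 of 16 members higher and 2 lower. SLC40A1, the iron exporter ferroportin, was at 80.1, 83.1 and 87.3 CPM in libraries labelled knockdown, against 49.7, 48.7 and 49.2 CPM in control libraries. TFRC, the transferrin receptor, fell by 0.38 on the log2 scale. FTH1, the ferritin heavy chain, averaged 5315 ± 76.2 CPM in libraries labelled knockdown and 4264 ± 4.73 CPM in control libraries (SD, n = 3 each), and FTL, the light chain, was not called at 0.04. Cytosolic tRNA synthetases had 12 of 20 members lower and 6 higher, with a median of -0.19, led by the phenylalanine enzymes FARSA and FARSB, which both fell (-0.47 and -0.43). Circadian clock genes had 7 of 19 members higher and 8 lower, with DBP, a clock output factor, higher (0.70) and the repressor PER2 lower (-0.51).

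Genes outside the cell cycle lists were also among those that fell furthest. NRGN, a calmodulin-binding protein best known from neurons, was at 1.01, 0.862 and 1.24 CPM in libraries labelled knockdown, against 5.96, 6.74 and 6.28 CPM in control libraries. DIAPH3, a formin that nucleates actin and acts in cytokinesis, was at 10.7, 10.9 and 11.4 CPM in libraries labelled knockdown, against 49.8, 50.7 and 55.5 CPM in control libraries.

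A few abundant genes had 1 library far from its 2 replicates. CEBPB, a transcription factor of acute phase genes, was at 19.7, 217 and 12.6 CPM in libraries labelled knockdown, against 8.86, 12.9 and 10.7 CPM in control libraries. IGFBP3 was at 799, 810 and 802 CPM in libraries labelled knockdown, against 709, 704 and 228 CPM in control libraries. DKK3 was at 28.6, 68.7 and 30.2 CPM in libraries labelled knockdown, against 31.1, 31.0 and 28.1 CPM in control libraries. None of these was called in the fit of the A549 libraries, and they were chosen after their values were seen. CEBPB was called in a fit of all 24 libraries. IGFBP3 was called without control replicate 3, with a log2 fold change of 0.18 and an edgeR adjusted p of 0.000119.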
